A study of Danio rerio with 21 samples.

Results

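The cells described here are cycling macrophages of zebrafish larvae (Danio rerio) from an experiment that combined a loss of rag1 with the drug R848. A cell was counted when it carried at least 1 UMI (unique molecular identifier, 1 counted RNA molecule) of at least 3 of 6 macrophage genes (mfap4, marco, mpeg1.1, csf1ra, grn1 and ctss2.1) and of at least 2 of 5 cell cycle genes (mki67, top2a, cdk1, ccnb1 and aurkb). It also had at least 1000 UMIs, at most 20% mitochondrial UMIs, under 5% haemoglobin UMIs and at most 1 of the 3 C1q genes. The rule found 700 cells among 47108 that passed the depth and mitochondrial limits in 4 libraries. The whole series holds 201364 barcodes in 21 libraries. The members were thus selected on the measured counts of these genes in the same cells, so their levels are given as a description and support nothing.

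Macrophages engulf microbes and dying cells, and in fish as in mammals they arise from blood progenitors or renew themselves by division in the tissue. A dividing cell makes replication proteins in S phase, then the cyclin, kinase and spindle proteins of G2 and mitosis. R848 (resiquimod) is a small-molecule agonist of the endosomal Toll-like receptors that sense single-stranded RNA, and macrophages answer such ligands with cytokines, chemokines and interferon-stimulated genes.

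Single-cell RNA was measured in mCherry-positive cells, which descend from blood stem and progenitor cells labelled at 1 day post fertilization (dpf) and were sorted from whole Liberase-digested larvae at 8 dpf. The groups were rag1 crispants given 25 µM R848 at 6 dpf, untreated rag1 crispants, slc24a5 crispants given the same R848 dose at the same age, and untreated slc24a5 crispants. A crispant is a larva injected with CRISPR reagents, and the labels call both genotypes mosaic mutants, so that not every cell need carry an edit. slc24a5 is a pigmentation gene and its crispants were the study's controls, whereas rag1 encodes a recombinase that assembles T and B cell receptor genes. The number of larvae pooled per library is not given in the sources used here.

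Each group was 1 library. The spread between replicates is therefore unknown, and the differences below have no test and no p-value. Library and group cannot be told apart. Intervals are 95% intervals (exact Clopper-Pearson for shares, Newcombe for differences of shares, exact Poisson for sums of UMIs) and cover counting error only. The libraries held 112020213 UMIs (rag1 with R848), 75637505 (rag1 untreated), 150042529 (slc24a5 with R848) and 118067952 (slc24a5 untreated). Cell Ranger and the kit were the same for the 4 libraries. Pairs of libraries shared 31 to 65 barcodes, and 2 of these belonged to a cycling macrophage, none to one in both libraries. The rag1 transcript gave 196, 225, 662 and 853 UMIs in the whole libraries of rag1 with R848, rag1 untreated, slc24a5 with R848 and slc24a5 untreated, but counts at the 3′ end of a transcript do not check an edit.

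Cycling macrophages came almost wholly from the R848 libraries, which held 696 of the 700 cells. In rag1 crispants given R848, 250 of 1109 cells that met the macrophage part of the rule were cycling, or 22.5% (20.1 to 25.1%). In untreated rag1 crispants the count was 1 of 120, or 0.833% (0.0211 to 4.56%). In slc24a5 crispants given R848 it was 446 of 2277, or 19.6% (18.0 to 21.3%), and in untreated slc24a5 crispants 3 of 158, or 1.899% (0.393 to 5.45%). The intervals of treated and untreated libraries did not overlap in either genotype.

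The difference between R848 and untreated libraries was 21.7 points in rag1 crispants (17.3 to 24.4 points) and 17.7 points in slc24a5 crispants (13.8 to 19.95 points). Macrophages themselves were also more frequent with R848. They made up 9.77% of cells in the rag1 R848 library, against 1.55% in the untreated rag1 library, and 15.7% in the slc24a5 R848 library, against 1.17% in the untreated slc24a5 library. At macrophage level, a limit on macrophage RNA given below, the shares were 5.55% (rag1 with R848), 1.08% (rag1 untreated), 7.65% (slc24a5 with R848) and 0.731% (slc24a5 untreated). Of all cells that passed the depth and mitochondrial limits, cycling macrophages were 2.203% (rag1 with R848), 0.0129% (rag1 untreated), 3.08% (slc24a5 with R848) and 0.0221% (slc24a5 untreated). Of the cells with under 3 of the macrophage genes, those with at least 2 of the cycle genes were 3.08% (rag1 with R848), 1.46% (rag1 untreated), 2.97% (slc24a5 with R848) and 1.49% (slc24a5 untreated). Such cells thus also carried cycle genes more often in the treated libraries, by a smaller margin. In the treated libraries many of those with cycle genes lay just outside the rule, with 2 of the macrophage genes and the rest met. These were 144 of 301 (rag1 with R848), 0 of 110 (rag1 untreated), 183 of 332 (slc24a5 with R848) and 5 of 199 (slc24a5 untreated). The margin is therefore not read as cycling of cells other than macrophages.

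**Figure D1:**
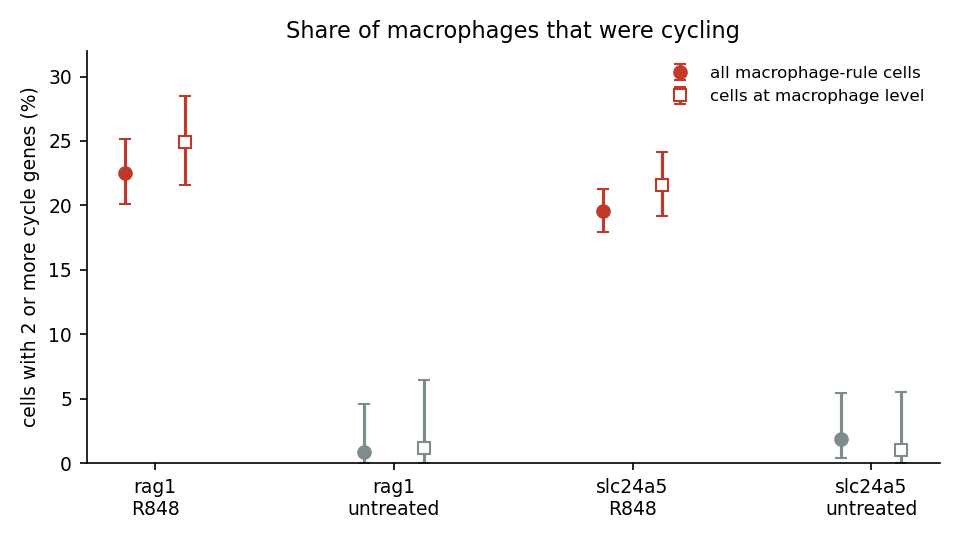
Share of macrophages with 2 or more cycle genes (y axis, %) in each of the 4 libraries, with exact 95% intervals of counting error. Filled circles are all macrophage-rule cells and open squares the cells at macrophage level (5 macrophage genes at 0.1% or more of UMIs); both R848 libraries lie between 19.6% and 24.9%, and both untreated libraries between 0.833% and 1.899%.

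Detection of a gene depends on how many UMIs a cell has, and cycling cells were deep. Cycling macrophages had a median of 30588 UMIs in the rag1 R848 library and 32423.5 in the slc24a5 R848 library, against 20539 (rag1) and 20011 (slc24a5) in the other macrophages of the same libraries. The median number of genes was 4625.5 (rag1) and 4797.5 (slc24a5) in cycling cells and 3189 (rag1) and 2942 (slc24a5) in other macrophages. Other macrophages of untreated larvae had medians of 15473 UMIs (rag1) and 17378 UMIs (slc24a5). When every cell was thinned to 3000 UMIs, leaving out shallower cells, the share was 11.5% of 731 macrophages (rag1 with R848), 1 of 117 (rag1 untreated), 12.5% of 1379 (slc24a5 with R848) and 1 of 114 (slc24a5 untreated). The gap between treated and untreated libraries was smaller in points at this depth and remained in both genotypes.

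Between genotypes, the share of macrophages that were cycling under R848 differed by 2.96 points (rag1 minus slc24a5), with an interval of -0.00382 to 5.99 points that includes 0. The untreated libraries differed by -1.07 points (-4.71 to 2.95 points). After thinning to 3000 UMIs the slc24a5 R848 library had the higher share, and after thinning to 5000 UMIs the shares were 16.7% (rag1 with R848) and 16.4% (slc24a5 with R848), so the order of the genotypes turned with depth. For macrophages as a share of all cells under R848, rag1 minus slc24a5 was -5.97 points (-6.78 to -5.16 points), and at macrophage level it was -2.10 points (-2.70 to -1.48 points).

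The name macrophage did not hold for all of these cells. Cells that consist mostly of haemoglobin RNA should lack macrophage RNA, yet at least 1 UMI of grn1, a granulin gene of macrophages, stood in 26.8% of them in the rag1 R848 library and in 44.1% in the slc24a5 R848 library, at median depths of 3459 UMIs (rag1) and 3400 UMIs (slc24a5). In untreated libraries grn1 stood in 1.97% (rag1) and 2.17% (slc24a5) of such cells. Of the same haemoglobin-rich cells, 0.764% (rag1 with R848), 0% (rag1 untreated), 4.21% (slc24a5 with R848) and 0% (slc24a5 untreated) met the macrophage part of the rule by gene count alone. For this reason mfap4, marco, mpeg1.1, csf1ra and grn1 were summed in each cell, leaving out ctss2.1, which also stood at 969 CPM (UMIs per 1000000 UMIs) in cells of the slc24a5 R848 library with 5 neutrophil genes.

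The sum of the 5 macrophage genes split the cycling cells into a low and a high set. Of the cycling cells of the rag1 R848 library 36 lay under 0.01% of their UMIs, 28 at 0.01 to 0.02% and 15 at 0.02 to 0.05%. A further 14 lay at 0.05 to 0.1%, 23 at 0.1 to 0.2% and 54 at 0.2 to 0.5%. In the slc24a5 R848 library the same bins held 29, 101, 50, 27, 30 and 80 cells. The bin just below the limit held the fewest of these bins in both libraries. The margin was small, with 14 against 15 cells (rag1) and 27 against 29 (slc24a5), and the bins are of unequal width. With a limit of 0.1%, chosen after seeing the data and called macrophage level here, 398 of the 700 cells were at macrophage level and 302 below. The cells below held 0.0240% of their UMIs in these genes in the rag1 R848 library and 0.0240% in the slc24a5 R848 library. Haemoglobin-rich cells held 0.0122% (rag1 with R848) and 0.0244% (slc24a5 with R848), and 0.000804% (rag1) and 0.000863% (slc24a5) in untreated libraries. The median low cell held 0.0129% in the rag1 R848 library and 0.0161% in the slc24a5 R848 library. The pooled share in low cells was thus near that of haemoglobin-rich cells in slc24a5 and higher in rag1. The 300 low cells of the R848 libraries were also deeper, with medians of 35045 UMIs (rag1) and 34797 UMIs (slc24a5). Haemoglobin-rich cells had 3459 UMIs (rag1) and 3400 UMIs (slc24a5), so a like share means more UMIs per low cell. Whether these UMIs came from free RNA was not tested, and they are not read as expression. The 157 cells (rag1) and 239 cells (slc24a5) at macrophage level held 0.819% (rag1) and 0.829% (slc24a5).

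**Figure D2:**
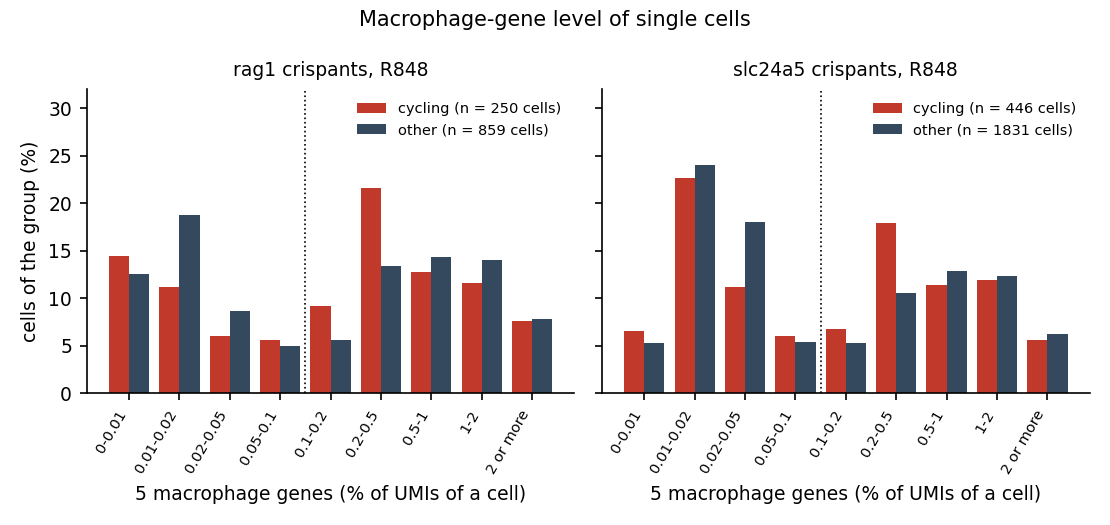
Percent of the cells of a group (y axis) by the share of a cell's UMIs that came from mfap4, marco, mpeg1.1, csf1ra and grn1 (x axis, in bins of unequal width), for cycling and other macrophages of the 2 R848 libraries. The dotted line is the limit of 0.1%; both groups of cells show a low and a high peak, with 62.8% (rag1) and 53.6% (slc24a5) of the cycling cells above the limit.

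At macrophage level the share of cycling cells was of similar size. It was 24.9% of 630 cells in the rag1 R848 library (21.6 to 28.5%), 1.19% of 84 in the untreated rag1 library, 21.6% of 1106 in the slc24a5 R848 library (19.2 to 24.2%) and 1.01% of 99 in the untreated slc24a5 library. The difference between R848 and untreated libraries was 23.7 points in rag1 (17.5 to 27.5 points) and 20.6 points in slc24a5 (15.5 to 23.3 points). Under R848 rag1 minus slc24a5 was 3.31 points (-0.882 to 7.61 points). The gap between treated and untreated libraries therefore did not rest on the cells with low macrophage RNA.

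The edges of the rule were described without a test. Members with exactly 3 of the macrophage genes numbered 96 (rag1 with R848) and 186 (slc24a5 with R848), and 29.2% (rag1) and 18.3% (slc24a5) of them were at macrophage level. Cells just outside, with 2 of the macrophage genes, numbered 144 (rag1) and 183 (slc24a5), and 6.25% (rag1) and 7.65% (slc24a5) of them were at that level. Members with exactly 2 cycle genes numbered 43 (rag1) and 91 (slc24a5), with 109 CPM (rag1) and 125 CPM (slc24a5) of the 5 cycle genes summed. Cells with only 1 cycle gene had 47.1 CPM (rag1) and 52.1 CPM (slc24a5). All 5 cycle genes were found in 114 members of the rag1 R848 library and 220 of the slc24a5 R848 library, so the largest single class of members carried the whole cycle list. Cells that carried 2 or 3 of the C1q genes, complement genes that many tissue macrophages express and which the rule left out, were cycling in 81 of 375 cells (rag1 with R848), 2 of 81 (rag1 untreated), 189 of 703 (slc24a5 with R848) and 2 of 69 (slc24a5 untreated). Cycling cells were thus also the more frequent with R848 among the C1q cells.

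A clustering of the 700 cells by their variable genes gave 10 clusters, whose leading genes describe how the cells differ among themselves. Cluster 5, with 77 cells, all at macrophage level, had the most mfap4, which encodes a secreted glycoprotein used as a zebrafish macrophage marker, at 3883 CPM, and was led by mfap4, abcg2a, havcr1 and grn1. Cluster 2, with 124 cells of which 116 were at macrophage level, was led by tnfrsf9a, which encodes a costimulatory receptor of the TNF receptor family, ccl34b.1, the cathepsin gene ctsk and cd180. Its marco level, which marks a scavenger receptor, was 100.1 CPM, its ctsk level 2553 CPM and its sum of the interferon-stimulated list 2415 CPM. Cluster 3, with 92 cells of which 88 were at macrophage level, was led by cxcl18b, a chemokine gene, fgl2a, s100a10b and f5. Of its cells 10.9% carried cxcl18b, 94.6% fgl2a, 88.0% s100a10b and 70.7% f5. The list of macrophage genes that the rule did not use summed to 14246 CPM in cluster 2, 8202 CPM in cluster 3 and 11629 CPM in cluster 5, above the cycling cells outside each cluster (5749, 6227 and 5856 CPM). These 3 clusters thus carried macrophage genes beyond those of the rule, as a description of clusters formed on these values.

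The other clusters had a smaller share of their cells at macrophage level. Cluster 1 had 131 cells of which 83 were at macrophage level, with the annexin genes anxa2a and anxa5b in the lead and spi1b, a myeloid transcription factor, at 1557 CPM. Its mfap4 level was 251 CPM and its marco level 0.379 CPM. The median cell of cluster 1 held 0.136% of its UMIs in the 5 macrophage genes, near the limit of 0.1%, so the limit runs through this cluster. Cluster 4, with 90 cells of which 9 were at macrophage level, had 41.9 CPM of mfap4, and cluster 7, with 45 cells and none at macrophage level, had myb, a progenitor transcription factor, at 215 CPM. Both stay unnamed. Cluster 6, with 51 cells, was erythroid-like (red cell line), with hbbe2, hemgn and rhag, a red cell membrane gene, in the lead, and 14 of its cells had high doublet scores. Cluster 8, with 44 cells, was NK/ILC-like (natural killer or innate lymphoid), led by nkl.1 at 2705 CPM, nkl.4 and the granzyme gene gzm3.3. These genes were detected in 34.1% (nkl.1), 27.3% (nkl.4) and 31.8% (gzm3.3) of its cells. The name therefore describes the sum of the cluster and not each cell. Cluster 9, with 31 cells, was neutrophil-like, with lyz at 57237 CPM, npsn and mpx. Cluster 10, with 15 cells of which 8 were at macrophage level, was led by ccl19a.1, cd74a and il12ba, with cd74a, the MHC class II invariant chain, at 2601 CPM. Its sum of the macrophage genes that the rule did not use was 14827 CPM, the highest of the 10 clusters.

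The treated libraries contributed to every cluster in both genotypes. The rag1 R848 library gave 62 cells and the slc24a5 R848 library 62 cells to cluster 2, the only cluster in which the smaller rag1 library gave as many. In the NK/ILC-like cluster 8 the counts were 10 (rag1) and 34 (slc24a5). The 4 untreated cells fell in clusters 1, 3, 4 and 5. Over all members, 35 were among the highest doublet scores of their library, 6 (rag1 with R848), 0 (rag1 untreated), 28 (slc24a5 with R848) and 1 (slc24a5 untreated). The number of cells flagged per library was set in advance by the doublet rate. With R848, flagged cells were 2.4% (rag1) and 6.28% (slc24a5) of cycling cells, against 5.70% (rag1) and 6.06% (slc24a5) of other macrophages.

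**Figure D3:**
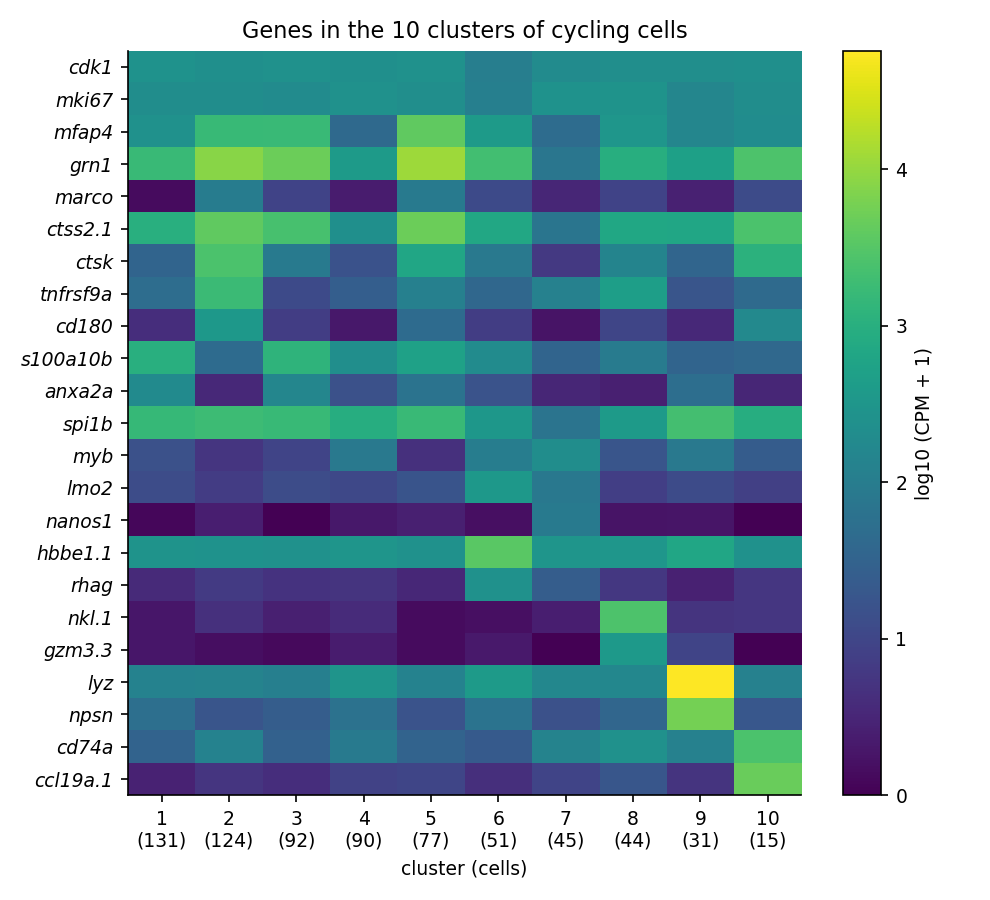
Level of named genes (rows, log10 of CPM + 1, colour scale) in the 10 clusters of cycling cells (columns, with the number of cells of each). cdk1 and mki67 stand in every cluster and are lowest in cluster 6, whereas mfap4 and grn1 are highest in clusters 2, 3 and 5, haemoglobin and rhag in cluster 6, nkl.1 in cluster 8 and lyz in cluster 9.

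Gene levels below are sums over the cells at macrophage level, in CPM, unless stated otherwise. The cycling groups are 157 cells of the rag1 R848 library and 239 of the slc24a5 R848 library, and the other macrophages are 473 (rag1) and 867 (slc24a5) cells of the same libraries and 83 (rag1) and 98 (slc24a5) untreated cells. With 1 cycling cell at macrophage level in each untreated library, the response of cycling cells to R848, the genotype comparison without R848 and any difference in response between cycling and other macrophages could not be measured. Fold changes are log2 ratios of CPM + 10, which understate the change of low genes, and a gene is counted when both R848 libraries show a difference of 2-fold or more in one direction and it has at least 50 UMIs in the higher group of each.

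Genes of G2 and mitosis set the cycling cells apart, as the choice of the cells by such genes fixes in part. Among the genes of the rule, cdk1, the kinase that drives entry into mitosis, had 257 CPM (243 to 272, rag1) and 260 CPM (249 to 272, slc24a5) in cycling macrophages, against 1.93 CPM (rag1) and 3.01 CPM (slc24a5) in other R848 macrophages and 0 CPM in untreated ones of rag1 (0 to 2.92) and of slc24a5 (0 to 2.38). The proliferation marker mki67 had 215 CPM (rag1) and 198 CPM (slc24a5), against 3.39 CPM (rag1) and 3.21 CPM (slc24a5) in other R848 macrophages. These are the values the rule selected.

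Of the 27 measured genes of a G2/M list that holds none of the rule's genes, 27 stood 2-fold or more higher in cycling cells, with medians of 2.76 (rag1) and 2.82 (slc24a5) log2 units. Over all 9066 genes measured at this level, 341 were higher (3.76%) and 19 lower (0.21%), and the median gene was at -0.07 (rag1) and -0.05 (slc24a5). A gene counts as measured when its higher group has at least 50 UMIs in each library. When other R848 macrophages alone were compared between genotypes, 8 of the 28 genes of the G2/M list were measured. Most of the list was thus measured here through the cycling cells, where it is high. The 27 of 27 was therefore fixed in part by this limit, beside the choice of cells. It is not weighed against the 3.76%. The spindle checkpoint gene mad2l1 had 225 CPM (rag1) and 234 CPM (slc24a5) in cycling cells, against 3.87 CPM (rag1) and 3.99 CPM (slc24a5) in other R848 macrophages. The importin gene kpna2 had 226 CPM (rag1) and 231 CPM (slc24a5), against 5.08 CPM (rag1) and 8.18 CPM (slc24a5). In both libraries the cycling cells lay far above the other macrophages for each of these genes.

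Further genes in this group were the kinetochore gene cenpf, the spindle genes nusap1, kif11 and dlgap5, the mitotic kinase gene plk1, the histone gene hist1h2a6, the survivin homolog birc5a and the checkpoint target cdc20. The gene cenpf had 144 CPM (rag1) and 149 CPM (slc24a5) in cycling cells, against 1.69 CPM (rag1) and 2.09 CPM (slc24a5) in other R848 macrophages. The gene birc5a had 131 CPM (rag1) and 141 CPM (slc24a5), against 4.23 CPM (rag1) and 6.02 CPM (slc24a5), and cdc20 had 128 CPM (rag1) and 112 CPM (slc24a5), against 6.65 CPM (rag1) and 5.30 CPM (slc24a5). The chromatin gene hmgb2a was the most abundant, with 2748 CPM (rag1) and 2779 CPM (slc24a5), against 563 CPM (rag1) and 496 CPM (slc24a5) in other R848 macrophages and 163 CPM (rag1) and 227 CPM (slc24a5) in untreated ones.

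The S phase list was split, with medians of 1.12 (rag1) and 1.27 (slc24a5) log2 units. Of its 18 measured genes, 11 were 2-fold or more higher in cycling cells, beside 3.76% of all genes. They were pcna, the sliding clamp of DNA polymerase, the nucleotide synthesis genes dut, tyms, rrm1 and dhfr, the replication and repair genes cdc45, chaf1a, fen1, lig1 and rpa2, and the histone mRNA binding gene slbp. The clamp gene pcna had 393 CPM (375 to 411, rag1) and 348 CPM (335 to 362, slc24a5) in cycling cells, against 140 CPM (rag1) and 112 CPM (slc24a5) in other R848 macrophages and 18.2 CPM (rag1) and 40.7 CPM (slc24a5) in untreated ones. The gene dut had 269 CPM (rag1) and 283 CPM (slc24a5), against 59.1 CPM (rag1) and 63.5 CPM (slc24a5) in other R848 macrophages and 3.17 CPM (rag1) and 7.75 CPM (slc24a5) in untreated ones. Both genes ran in the order cycling, other R848, untreated, in both genotypes.

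The MCM helicase genes did not follow. Of mcm2, mcm3, mcm4, mcm5 and mcm6, none was 2-fold higher, with log2 ratios between -0.34 and 0.26. mcm2 had 6.18 CPM (4.11 to 8.93, rag1) and 7.24 CPM (5.43 to 9.47, slc24a5) in cycling cells, against 10.3 CPM (8.21 to 12.7, rag1) and 10.6 CPM (9.03 to 12.4, slc24a5) in other R848 macrophages. The intervals overlap in both genotypes, and the pseudocount of 10 CPM shrinks ratios at such levels.

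Thinned to 3000 UMIs per cell, cycling macrophages had 57.1 (rag1) and 57.7 (slc24a5) UMIs of the G2/M list per 10000 and 13.7 (rag1) and 13.4 (slc24a5) of the S phase list. Of 152 (rag1) and 229 (slc24a5) cycling cells, 90.1% (84.2 to 94.4%, rag1) and 89.5% (84.8 to 93.2%, slc24a5) had more G2/M than S phase UMIs. Among other R848 macrophages 64.2% of 430 (rag1) and 61.3% of 718 (slc24a5) did, with 8.74 (rag1) and 8.09 (slc24a5) G2/M UMIs per 10000, and among untreated ones 44.0% of 75 (rag1) and 37.4% of 91 (slc24a5), with 2.49 (rag1) and 2.78 (slc24a5). Ties between the lists were 2.63% (rag1) and 3.06% (slc24a5) of cycling cells and 18.4% (rag1) and 20.6% (slc24a5) of other R848 macrophages. Among untreated macrophages ties were 46.7% (rag1) and 50.5% (slc24a5), and 9.33% (rag1) and 12.1% (slc24a5) had more S phase UMIs. The lower G2/M share in untreated cells thus goes with ties at low counts and is not read as phase. The rule's 5 genes are themselves expressed mainly in G2 and mitosis, so cells in early S phase can fall outside it, and the unequal sizes of the lists (28 and 23 genes) also enter these shares.

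**Figure D4:**
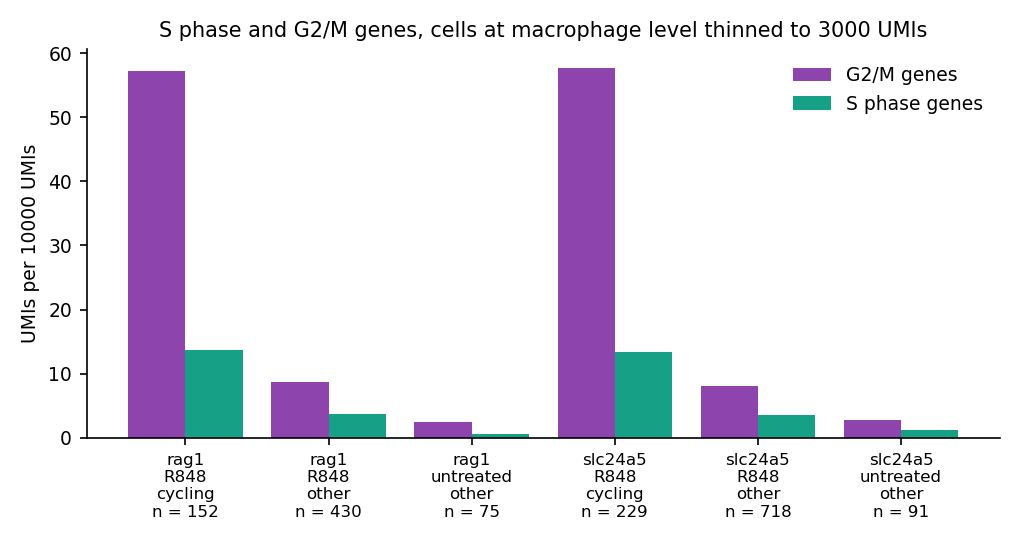
UMIs of the G2/M list and of the S phase list per 10000 UMIs (y axis), over cells at macrophage level thinned to 3000 UMIs, with the number of cells under each group. Cycling macrophages of both R848 libraries stand at 57.1 and 57.7 for G2/M, other R848 macrophages at 8.74 and 8.09, and untreated macrophages at 2.49 and 2.78; there are no error bars because each bar is 1 pooled value per library.

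Regulators upstream of the cycle did not reach the fold. Of 11 measured genes among cyclins D and E, CDK inhibitors and the MYC family, 0 were 2-fold higher and 0 lower in cycling cells at macrophage level. Over all genes 3.76% were higher and 0.21% lower, and counts of 0 in so short a list do not stand apart from these shares. The same holds for each list below with 0 genes higher and 0 lower. ccnd1 (cyclin D1) had 5.08 CPM (rag1) and 7.38 CPM (slc24a5) in cycling cells, against 7.74 CPM (rag1) and 9.95 CPM (slc24a5) in other R848 macrophages. ccnd2a (cyclin D2) had 36.2 CPM (rag1) and 53.2 CPM (slc24a5), against 92.3 CPM (rag1) and 80.9 CPM (slc24a5). The CDK inhibitor cdkn1ba had 20.3 CPM (rag1) and 20.4 CPM (slc24a5), against 29.7 CPM (rag1) and 35.6 CPM (slc24a5) in other R848 macrophages and 137 CPM (rag1) and 98.8 CPM (slc24a5) in untreated ones. Its level was thus highest in untreated macrophages and lowest in cycling cells of both genotypes, with less than 2-fold between cycling and other R848 cells.

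The macrophage genes of the rule chose these cells, and their levels are a description. grn1, which the rule used, had 6280 CPM (rag1) and 6401 CPM (slc24a5) in cycling cells, against 8258 CPM (rag1) and 7636 CPM (slc24a5) in other R848 macrophages and 3882 CPM (rag1) and 2630 CPM (slc24a5) in untreated ones. marco, also of the rule, had 47.9 CPM (41.7 to 54.7, rag1) and 33.5 CPM (29.4 to 37.9, slc24a5), against 111 CPM (rag1) and 98.0 CPM (slc24a5) in other R848 macrophages. Over all cells of a cluster, marco stood at 0.379 CPM in cluster 1 and 100.1 CPM in cluster 2, so its sum mixes unlike clusters. Of 21 measured macrophage genes that the rule did not use, 0 were higher and 3 lower, with medians of -0.34 (rag1) and -0.38 (slc24a5) log2 units. Over all genes 3.76% were higher and 0.21% lower.

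The 3 lower macrophage genes were lgmn, a lysosomal protease, havcr1, a receptor for the phosphatidylserine of dying cells, and cmklr1, a chemerin receptor. lgmn had 299 CPM (283 to 315, rag1) and 274 CPM (262 to 286, slc24a5) in cycling cells, against 682 CPM (rag1) and 628 CPM (slc24a5) in other R848 macrophages and 2310 CPM (rag1) and 1207 CPM (slc24a5) in untreated ones. cmklr1 had 24.3 CPM (rag1) and 17.1 CPM (slc24a5), against 64.7 CPM (rag1) and 45.2 CPM (slc24a5) in other R848 macrophages and 302 CPM (rag1) and 253 CPM (slc24a5) in untreated ones. havcr1 had 120 CPM (rag1) and 128 CPM (slc24a5), against 264 CPM (rag1) and 280 CPM (slc24a5) in other R848 macrophages and 911 CPM (rag1) and 450 CPM (slc24a5) in untreated ones. For all 3 genes the summed cycling cells of both genotypes were lowest and the untreated macrophages highest. These sums mix unlike clusters. Over all cells of a cluster, havcr1 stood at 18.4 CPM in cluster 1, 183 CPM in cluster 2 and 278 CPM in cluster 5. The part of each cluster in the lower levels was not tested. The rule's limit on C1q genes depends on depth, and this comparison was not run without it. Cycling cells had medians of 29015 UMIs (rag1) and 31523 UMIs (slc24a5), against 15791 (rag1) and 18128 (slc24a5) in other R848 macrophages.

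Other macrophage genes outside the rule, such as spi1b and lygl1, were lower in cycling cells by less than 2-fold. spi1b had 1728 CPM (rag1) and 1543 CPM (slc24a5) in cycling cells, against 1980 CPM (rag1) and 1761 CPM (slc24a5) in other R848 macrophages. lygl1, a goose-type lysozyme gene, had 3128 CPM (rag1) and 2872 CPM (slc24a5), against 4130 CPM (rag1) and 4039 CPM (slc24a5) in other R848 macrophages and 1683 CPM (rag1) and 1510 CPM (slc24a5) in untreated ones. Of 17 myeloid transcription factor genes measured, 0 were higher and 0 lower, with medians of -0.43 (rag1) and -0.36 (slc24a5). These medians lay below the -0.07 (rag1) and -0.05 (slc24a5) of all genes, of which 3.76% were higher and 0.21% lower.

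Lipid handling, iron and efferocytosis genes had the lowest medians of the lists with 10 or more measured genes, at -1.08 (rag1) and -0.80 (slc24a5) log2 units. Of 13 measured genes 4 were lower (apoc1, mt2, and lgmn and havcr1, which are counted above too) and 0 higher. Over all genes 0.21% were lower and 3.76% higher. mt2, a metallothionein that binds zinc and copper, had 17.7 CPM (14.00 to 21.98, rag1) and 9.70 CPM (7.58 to 12.24, slc24a5) in cycling cells, against 83.7 CPM (rag1) and 42.3 CPM (slc24a5) in other R848 macrophages and 3930 CPM (rag1) and 2575 CPM (slc24a5) in untreated ones. apoc1, an apolipoprotein, had 1.77 CPM (rag1) and 1.23 CPM (slc24a5) in cycling cells, against 133 CPM (rag1) and 16.6 CPM (slc24a5) in other R848 macrophages and 4782 CPM (rag1) and 2732 CPM (slc24a5) in untreated ones. Cells with any apoc1 UMI were 1.91% (rag1) and 0.418% (slc24a5) of cycling cells, against 3.17% (rag1) and 1.61% (slc24a5) of other R848 macrophages and 32.5% (rag1) and 28.6% (slc24a5) of untreated ones. A small fraction of cells therefore carries the apoc1 values of the treated libraries.

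The neighbouring apolipoprotein gene apoeb had 1.32 CPM (rag1) and 1.23 CPM (slc24a5) in cycling cells, against 33.0 CPM (rag1) and 5.10 CPM (slc24a5) in other R848 macrophages and 1760 CPM (rag1) and 928 CPM (slc24a5) in untreated ones. It was not counted, since the slc24a5 ratio of -0.43 on CPM + 10 misses the fold. The cholesterol exporter abca1b had 57.2 CPM (rag1) and 59.9 CPM (slc24a5), against 115 CPM (rag1) and 123 CPM (slc24a5) in other R848 macrophages and 542 CPM (rag1) and 405 CPM (slc24a5) in untreated ones. The haem oxygenase gene hmox1a had 80.1 CPM (rag1) and 77.3 CPM (slc24a5), against 186 CPM (rag1) and 142 CPM (slc24a5) in other R848 macrophages. On CPM + 10, each of these was lower in cycling cells by less than 2-fold in at least 1 genotype. For apoeb the pseudocount shrinks the ratio, and the plain CPM values lie further apart.

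Lysosomal genes lay in the same direction below the fold. Of 17 measured genes of the list, 0 were higher and 0 lower, with medians of -0.67 (rag1) and -0.50 (slc24a5). All genes gave 3.76% higher and 0.21% lower. The cathepsin gene ctsz had 420 CPM (rag1) and 393 CPM (slc24a5) in cycling cells, against 990.1 CPM (rag1) and 749 CPM (slc24a5) in other R848 macrophages and 1576 CPM (rag1) and 1290.0 CPM (slc24a5) in untreated ones. ctsd, the aspartic cathepsin gene, had 796 CPM (rag1) and 815 CPM (slc24a5), against 1292 CPM (rag1) and 1205 CPM (slc24a5) in other R848 macrophages and 3643 CPM (rag1) and 2216 CPM (slc24a5) in untreated ones. The lysosome list summed to 18898 CPM (rag1) and 19017 CPM (slc24a5) in cycling cells, against 28687 CPM (rag1) and 25987 CPM (slc24a5) in other R848 macrophages. The cycling sums mix unlike clusters. Over all cells of a cluster, the list summed to 7456 CPM in cluster 1 and 28377 CPM in cluster 2. The part of each cluster in the lower sums was not tested.

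By the rule for naming genes, the remaining lower genes were tnfaip2b, ocstamp, plaua, AL831726.2, hsp70.2 and kctd12.2. ocstamp, needed in mouse for the fusion of macrophages and osteoclasts, had 8.39 CPM (rag1) and 7.52 CPM (slc24a5) in cycling cells, against 64.5 CPM (rag1) and 33.7 CPM (slc24a5) in other R848 macrophages and 348 CPM (rag1) and 390 CPM (slc24a5) in untreated ones. plaua, a urokinase gene, had 111 CPM (rag1) and 96.9 CPM (slc24a5), against 346 CPM (rag1) and 229.9 CPM (slc24a5) in other R848 macrophages. The heat shock gene hsp70.2 had 72.0 CPM (rag1) and 36.4 CPM (slc24a5), against 167 CPM (rag1) and 120 CPM (slc24a5).

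No interferon-stimulated gene reached the fold between cycling and other macrophages. Of 20 measured genes, 0 were higher and 0 lower, with medians of -0.11 (rag1) and -0.18 (slc24a5). Beside this, 3.76% of all genes were higher and 0.21% lower in cycling cells. In other macrophages, R848 libraries against untreated ones had 9 of 20 genes of this list 2-fold or more higher and 0 lower, beside 6.42% of 8737 genes higher and 2.22% lower. A gene was measured with at least 50 UMIs in its higher group. The R848 groups held 8269829 (rag1) and 15281272 (slc24a5) UMIs, against 1263200 (rag1) and 1548122 (slc24a5) in untreated ones. Genes of low level could thus be measured through the R848 group alone, which favours higher over lower genes. The count of 9 is therefore a description and not a test of a response. mxc, an antiviral dynamin-like GTPase gene, had 84.8 CPM (76.5 to 93.7, rag1) and 83.5 CPM (77.0 to 90.4, slc24a5) in cycling cells, against 102 CPM (rag1) and 122 CPM (slc24a5) in other R848 macrophages and 7.92 CPM (rag1) and 6.46 CPM (slc24a5) in untreated ones. The immunoproteasome gene psmb8a had 122 CPM (rag1) and 114 CPM (slc24a5), against 128 CPM (rag1) and 132 CPM (slc24a5) in other R848 macrophages and 12.7 CPM (rag1) and 7.11 CPM (slc24a5) in untreated ones. The ubiquitin-like gene isg15 had 362 CPM (rag1) and 236 CPM (slc24a5), against 429 CPM (rag1) and 233 CPM (slc24a5) in other R848 macrophages and 34.8 CPM (rag1) and 84.0 CPM (slc24a5) in untreated ones. As sums, cycling cells stood with the other R848 macrophages for these genes and above the untreated ones. These sums mix unlike clusters. Over all cells of a cluster, the interferon-stimulated list summed to 486 CPM in cluster 1 and 2415 CPM in cluster 2. Other R848 macrophages had 1297 CPM (rag1) and 977 CPM (slc24a5) of this list. The part of each cluster in the sums was not tested.

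**Figure D5:**
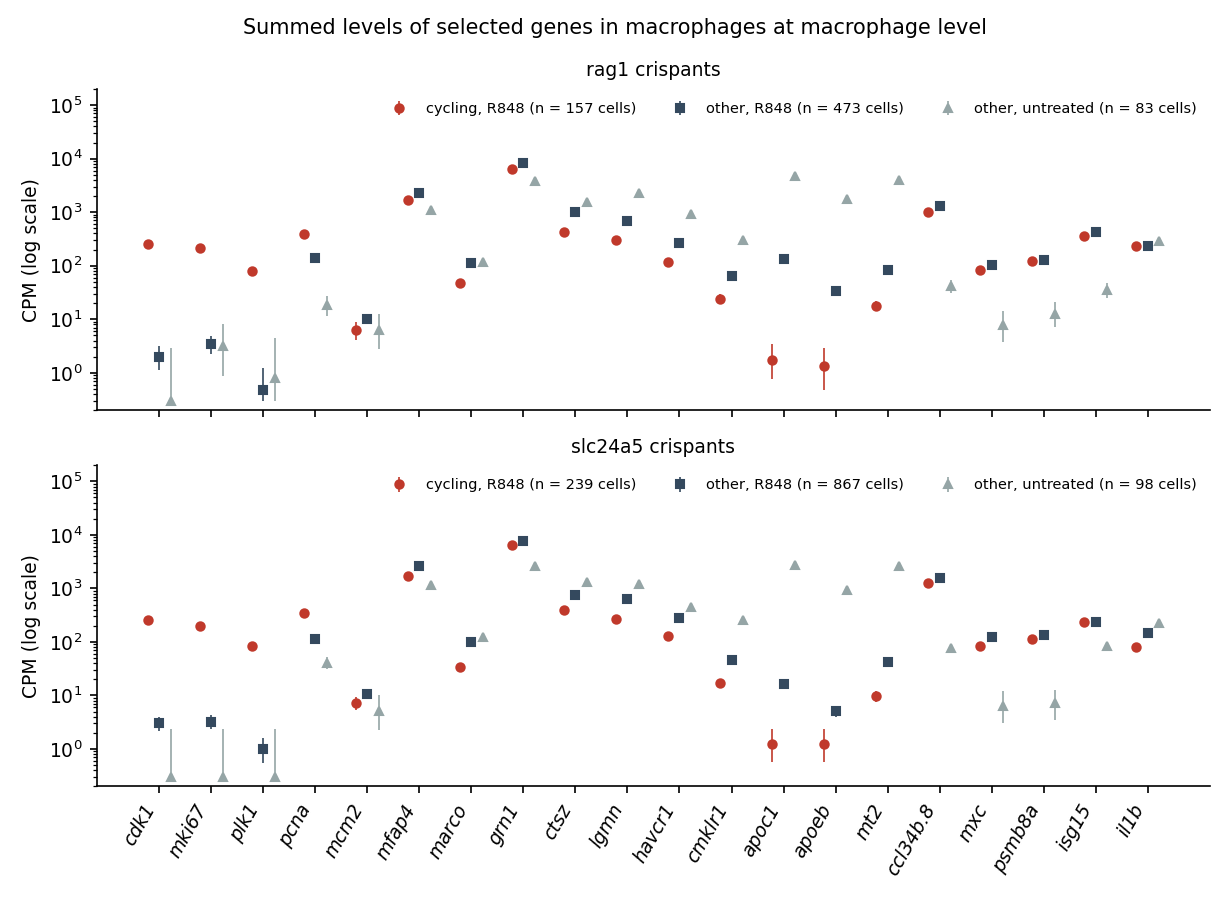
Summed level of 20 genes (x axis) in CPM (y axis, log scale) in cycling macrophages with R848, other macrophages with R848 and other untreated macrophages, all at macrophage level, for rag1 crispants (top) and slc24a5 crispants (bottom). Bars are exact 95% Poisson intervals, and values under 0.3 CPM, 0 included, are drawn at 0.3; cdk1, mki67 and plk1 stand apart in cycling cells, apoc1, apoeb and mt2 are lowest there, and mxc, psmb8a and isg15 lie beside the other R848 macrophages.

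Chemokine and inflammatory genes did not reach the fold between cycling and other macrophages either, beside 3.76% of all genes higher and 0.21% lower. Of 19 chemokine and receptor genes measured, 0 were higher and 0 lower, with medians of -0.47 (rag1) and -0.19 (slc24a5), and of 20 inflammatory genes 0 were higher and 0 lower, with medians of -0.58 (rag1) and -0.40 (slc24a5). The chemokine gene ccl34b.8 had 1001 CPM (rag1) and 1261 CPM (slc24a5) in cycling cells, against 1308 CPM (rag1) and 1587 CPM (slc24a5) in other R848 macrophages and 41.2 CPM (rag1) and 75.6 CPM (slc24a5) in untreated ones. In haemoglobin-rich cells of the R848 libraries its level was 13.03 CPM (rag1) and 28.3 CPM (slc24a5). saa, the acute phase serum amyloid gene, had 89.6 CPM (rag1) and 92.4 CPM (slc24a5), against 57.2 CPM (rag1) and 62.3 CPM (slc24a5) in other R848 macrophages and 0.792 CPM (rag1) and 0.646 CPM (slc24a5) in untreated ones. Both genes were thus high in cycling cells beside untreated macrophages of either genotype.

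Of the cytokine genes of these lists, tnfa, tnfb and cxcl19 are given as examples. tnfa had 15.7 CPM (12.24 to 19.8, rag1) and 15.7 CPM (12.98 to 18.9, slc24a5), against 27.9 CPM (rag1) and 23.4 CPM (slc24a5) in other R848 macrophages and 108 CPM (rag1) and 66.5 CPM (slc24a5) in untreated ones. tnfb, its paralog, had 158 CPM (rag1) and 120 CPM (slc24a5), against 269.7 CPM (rag1) and 223 CPM (slc24a5) in other R848 macrophages and 555 CPM (rag1) and 345 CPM (slc24a5) in untreated ones. The neutrophil chemoattractant gene cxcl19 had 940.4 CPM (rag1) and 917 CPM (slc24a5), against 1505 CPM (rag1) and 1983 CPM (slc24a5) in other R848 macrophages and 5044 CPM (rag1) and 4040 CPM (slc24a5) in untreated ones. Each of these 3 genes had its lowest level in cycling cells and its highest in untreated macrophages, in both genotypes. il1b, given below, did not have its lowest level in cycling cells of rag1. The 3 examples do not stand for their lists. With R848 against untreated, other macrophages had 2 of 20 inflammatory genes 2-fold or more higher and 1 lower. Of 19 chemokine and receptor genes 2 were higher and 2 lower, beside 6.42% of 8737 genes higher and 2.22% lower. Counts this small do not stand apart from these shares.

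The receptor side of the pathway was measured at low levels. Of 16 Toll-like receptor pathway genes, 0 were higher and 0 lower, with medians of -0.13 (rag1) and -0.14 (slc24a5). All genes gave 3.76% higher and 0.21% lower. tlr8b, a homolog of the mammalian receptor of R848, had 26.5 CPM (rag1) and 25.4 CPM (slc24a5) in cycling cells, against 34.7 CPM (rag1) and 32.9 CPM (slc24a5) in other R848 macrophages and 24.5 CPM (rag1) and 25.8 CPM (slc24a5) in untreated ones. The adaptor gene myd88 had 26.9 CPM (rag1) and 29.1 CPM (slc24a5), against 21.04 CPM (rag1) and 23.1 CPM (slc24a5) in other R848 macrophages. csf1ra, the receptor of colony stimulating factor 1 and a gene of the rule, had 89.8 CPM (rag1) and 70.0 CPM (slc24a5), against 92.4 CPM (rag1) and 105 CPM (slc24a5) in other R848 macrophages and 209 CPM (rag1) and 177 CPM (slc24a5) in untreated ones. For tlr8b the 6 levels lay within 24.5 and 34.7 CPM.

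Antigen presentation genes did not reach the fold between cycling and other R848 macrophages, beside 3.76% of all genes higher and 0.21% lower. Of 15 measured, 0 were higher and 0 lower, with medians of -0.47 (rag1) and -0.26 (slc24a5). cd74a had 91.4 CPM (rag1) and 122 CPM (slc24a5) in cycling cells, against 230.1 CPM (rag1) and 172 CPM (slc24a5) in other R848 macrophages and 521 CPM (rag1) and 638 CPM (slc24a5) in untreated ones. b2m, the light chain of MHC class I, had 194 CPM (rag1) and 165 CPM (slc24a5), against 292 CPM (rag1) and 214 CPM (slc24a5) in other R848 macrophages and 49.1 CPM (rag1) and 98.8 CPM (slc24a5) in untreated ones. The class II chaperone was thus at its lowest in cycling cells, whereas the class I chain lay between the other R848 macrophages and the untreated ones.

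No gene of the metabolic and growth lists reached the fold, beside 3.76% of all genes higher and 0.21% lower. Of 13 glycolysis genes, 0 were higher and 0 lower, with medians of -0.08 (rag1) and -0.19 (slc24a5). Of 12 ribosome biogenesis genes 0 were higher and 0 lower, with medians of 0.34 (rag1) and 0.22 (slc24a5). ncl (nucleolin) had 534 CPM (rag1) and 537 CPM (slc24a5) in cycling cells, against 394 CPM (rag1) and 392.4 CPM (slc24a5) in other R848 macrophages. Of 13 growth factor receptor and SOCS genes, 0 were higher and 0 lower, with medians of -0.22 (rag1) and -0.20 (slc24a5). The ribosome biogenesis medians lay above those of all genes and the growth factor medians below them.

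Markers of other cells were present at low levels in the cells at macrophage level. The neutrophil list summed to 2281 CPM (rag1) and 1801 CPM (slc24a5) in cycling cells, against 1999 CPM (rag1) and 2042 CPM (slc24a5) in other R848 macrophages, with none of its 11 genes at 0. lyz, the lysozyme gene of neutrophils, had 561 CPM in rag1 cycling cells, of which 1 cell gave 77.9%, and 292 CPM in slc24a5 cycling cells, of which 1 cell gave 53.1%. The erythroid list summed to 1064 CPM (rag1) and 1554 CPM (slc24a5), against 1179 CPM (rag1) and 1207 CPM (slc24a5), and the NK/ILC list to 9.93 CPM (rag1) and 14.2 CPM (slc24a5), against 37.97 CPM (rag1) and 21.5 CPM (slc24a5). Of the 14 genes of the T-lineage list, 5 (rag1) and 3 (slc24a5) were at 0 in cycling cells, while ccr9a, which macrophages carried too, stood at 1916 CPM (rag1) and 1292 CPM (slc24a5). The cells at macrophage level included 10 of the erythroid-like cluster 6, 5 of the NK/ILC-like cluster 8 and 2 of the neutrophil-like cluster 9. The part of these cells in the results was not tested.

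Over the 696 R848 cells as the rule gives them, cycling against other macrophages had 354 of 10991 genes 2-fold or more higher (3.22%) and 60 lower (0.546%). Of the higher genes 330 were also higher at macrophage level, or 93.2% of those of the rule and 96.8% of those at macrophage level. Of the lower genes 2 were shared, or 3.33% and 10.5%. The higher set was thus nearly the same with and without the cells of low macrophage RNA, and the lower set was not.

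The lower genes of the whole rule included apoc1, apoa2, ucp1, apoa1b, fabp10a, fetub, gapdh, hamp and rbp4, of which apoa2, apoa1b, fabp10a, fetub, hamp and rbp4 are known as liver genes. apoa2, an apolipoprotein gene, had 0.382 CPM (rag1) and 0.138 CPM (slc24a5) in cycling cells, against 66.6 CPM (rag1) and 60.01 CPM (slc24a5) in other R848 macrophages, and 1 cell gave 99.5% (rag1) and 72.7% (slc24a5) of the UMIs of other macrophages. fabp10a, a liver fatty acid binding gene, had 2.80 CPM (rag1) and 0.207 CPM (slc24a5), against 36.2 CPM (rag1) and 41.7 CPM (slc24a5), and 1 cell gave 98.1% (rag1) and 69.8% (slc24a5) of the UMIs of other macrophages. Single cells thus carried most of these UMIs, less so in slc24a5 than in rag1.

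Between genotypes, cycling macrophages of rag1 and slc24a5 crispants under R848 differed by 2-fold or more at few genes. At macrophage level 19 of 8481 genes were 2-fold or more higher in rag1 (0.224%) and 10 lower (0.118%), with a median of 0.03 log2 units. In the other macrophages of the same libraries 49 of 10213 genes were higher (0.48%) and 4 lower (0.0392%). With 1 library per genotype these ratios describe the libraries, and none has a check between replicates.

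No cell cycle gene was called between the genotypes, a count that does not stand apart from the low share called over all genes. Of 5 rule genes, 18 S phase genes and 28 G2/M genes measured, 0 were 2-fold higher and 0 lower in rag1, with medians of -0.02 (rule genes), -0.02 (S phase) and -0.07 (G2/M) log2 units. For cdk1 the log2 ratio of rag1 to slc24a5 was -0.02 and for mki67 it was 0.11.

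Among the genes higher in rag1 were il1b, socs3a and klf2a, each the single gene called in its list. These were 1 of 18 inflammatory genes, 1 of 12 growth factor receptor and SOCS genes and 1 of 16 myeloid transcription factor genes measured. Over all genes 0.224% were higher in rag1 and 0.118% lower. il1b, the interleukin 1 beta gene, had 237 CPM (223 to 251) in rag1 cycling cells and 79.7 CPM (73.3 to 86.4) in slc24a5 cycling cells, and 1 cell gave 16.1% (rag1) and 8.40% (slc24a5) of these. It was detected in 61.1% of rag1 and 62.3% of slc24a5 cycling cells, which are nearly equal shares. In other R848 macrophages il1b had 229.8 CPM (rag1) and 146 CPM (slc24a5), and in untreated ones 293 CPM (rag1) and 224 CPM (slc24a5). socs3a, a feedback inhibitor of cytokine signalling, had 30.5 CPM (rag1) and 6.83 CPM (slc24a5) in cycling cells, and 57.2 CPM (rag1) and 25.0 CPM (slc24a5) in other R848 macrophages. klf2a, a transcription factor gene, had 46.3 CPM (rag1) and 16.9 CPM (slc24a5) in cycling cells, and 65.7 CPM (rag1) and 24.6 CPM (slc24a5) in other R848 macrophages. The genotypes stood in the same order in cycling and in other R848 macrophages for these 3 genes.

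The same order held for tnfrsf9a, ncf1 and selenop. tnfrsf9a had 455 CPM (435 to 475, rag1) and 171 CPM (162 to 181, slc24a5) in cycling cells, with at least 1 UMI in 31.8% (rag1) and 35.6% (slc24a5) of them, and 855 CPM (rag1) and 286 CPM (slc24a5) in other R848 macrophages. ncf1, the p47 subunit of the NADPH oxidase, had 364 CPM (rag1) and 170.3 CPM (slc24a5) in cycling cells, and 407 CPM (rag1) and 225 CPM (slc24a5) in other R848 macrophages. selenop, selenoprotein P, had 27.8 CPM (rag1) and 5.60 CPM (slc24a5) in cycling cells, and 69.4 CPM (rag1) and 13.5 CPM (slc24a5) in other R848 macrophages. Cluster 2, led by tnfrsf9a, held 62 of the 250 rag1 and 62 of the 446 slc24a5 cycling cells, and the part of this share in the ratios was not tested.

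The remaining higher genes named by the rule were ved, kctd12.2, sept15 and npsn. ved, a homeobox gene, had 133 CPM (rag1) and 35.12 CPM (slc24a5), with 23.7% (rag1) and 34.2% (slc24a5) of its UMIs from 1 cell. npsn, the neutrophil protease nephrosin, had 82.8 CPM (rag1) and 32.8 CPM (slc24a5), with 53.3% (rag1) and 42.9% (slc24a5) from 1 cell. Of the interferon-stimulated list 1 of 17 measured genes was higher, dhx58, an RNA sensor regulator, beside 0.224% of all genes. dhx58 had 41.9 CPM (rag1) and 15.6 CPM (slc24a5) in cycling cells, and 72.8 CPM (rag1) and 24.9 CPM (slc24a5) in other R848 macrophages. For dhx58, 1 cell gave 21.1% (rag1) and 26.3% (slc24a5) of the UMIs.

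Of the 10 genes lower in rag1, the rule names ddx4, cldne, ccl19a.1, stmn4 and rgcc. ddx4, a germ line helicase gene, had 0 CPM in rag1 and 21.5 CPM in slc24a5 cycling cells, and 100% of its UMIs came from 1 cell. ccl19a.1, a chemokine gene, had 62.2 CPM (rag1) and 198 CPM (slc24a5), of which 1 cell gave 90.8% (rag1) and 57.5% (slc24a5). cldne, a claudin gene, had 0 CPM (rag1) and 20.5 CPM (slc24a5), with 86.7% from 1 cell. stmn4, a stathmin gene, had 5.30 CPM in rag1 and 25.1 CPM in slc24a5 cells, and rgcc, a cell cycle regulator, 15.2 CPM in rag1 and 44.0 CPM in slc24a5 cells, where the top cell gave 47.8% (stmn4) and 23.0% (rgcc) of the slc24a5 UMIs. Single cells carried most of the UMIs of ddx4, cldne and ccl19a.1, and not of rgcc. Over all members, rgcc was among the leading genes of the erythroid-like cluster 6, at 824 CPM against 32.8 CPM in members outside it. That cluster held 16 cells of the rag1 R848 library and 35 of the slc24a5 R848 library, and its part in the ratio was not tested.

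Over the same 696 cells as the rule gives them, 9 of 10452 genes were 2-fold or more higher in rag1 (0.0861%) and 10 lower (0.0957%), with a median of 0.04. The lower ones were nkl.1, nkl.4, ccl34b.4, ccl20a.3, gzm3.4, icn, gzma, ddx4, mdka and ccl35.2, among them natural killer lysin and granzyme genes. nkl.1, a natural killer lysin gene, had 14.4 CPM (rag1) and 223 CPM (slc24a5) over all cycling members, and 0.441 CPM (rag1) and 2.19 CPM (slc24a5) over those at macrophage level. The NK/ILC-like cluster held 10 of 250 members in rag1 and 34 of 446 in slc24a5, and nkl.1 stood at 2705 CPM in that cluster. The higher ones named by the rule were hspb9, selenop, ved, il1b and klf2a. hspb9, a small heat shock gene, had 22.9 CPM (rag1) and 3.24 CPM (slc24a5), with 52.2% of the rag1 UMIs from 1 cell.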

How the data were processed

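Droplet libraries of mCherry-positive cells were made with a version 4 kit, per the labels' protocols. The deposited matrices hold whole-number UMI counts per gene and barcode, made by the authors with Cell Ranger 8.0.1, per the file headers, and GRCz11 is named in the submitters' processing notes. The counts were used as deposited, with no correction for free RNA. Filters are given with the rule. Python 3.11.15, numpy 2.4.6, scipy 1.17.1, pandas 2.3.3, scanpy 1.11.5, igraph 0.11.9 and matplotlib 3.10.9 were used. Counts were summed per library and cell group, and log2 ratios of CPM + 10 were taken where each group had at least 20 cells. The calculation was tested on simulated data. The 10 genes with the largest smaller ratio of the 2 R848 libraries, in each direction, were named (for genotypes, the 10 largest ratios), leaving out symbols with most clone-type prefixes and symbols on more than 1 feature. Clusters used 1500 variable genes, 20 principal components, 15 neighbours and a resolution of 0.7. Doublets were scored against simulated pairs at a rate of 0.4% per 1000 barcodes, and members with high scores were kept. Such symbols numbered 549. One gene that this rule names is not reported here. Near-identical copies, such as the mfap4, nkl and ccl34b genes, may share reads. Whether counting used introns or strand is not given in the sources used here. The cells, gene lists and comparisons were chosen with earlier results of these data known, and the macrophage level was added after seeing the data. The alternatives tried are given in the closing section. The other 17 libraries of the series were not used here beyond their barcode counts.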

Additional observations from a re-analysis of the deposited data

Results flagged for a closer look

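The gene si:dkey-21e2.12 lay in opposite directions in the 2 genotypes when cycling macrophages were set against other macrophages under R848. Over all cells of the rule, the log2 ratio of si:dkey-21e2.12 was -1.74 in rag1 crispants and 1.27 in slc24a5 crispants, and the difference between them was not tested. At macrophage level the ratios of this gene were -0.02 (rag1) and 2.01 (slc24a5), so the opposite direction was no longer of 2-fold size. Of the neighbouring features of that name family, si:dkey-21e2.13 was at -1.13 (rag1) and 1.33 (slc24a5), si:dkey-21e2.8 at -1.68 (rag1) and 1.18 (slc24a5) and si:dkey-21e2.15 at -3.27 (rag1) and 1.66 (slc24a5) at macrophage level. Over all cells of the rule these 3 features were lower in cycling cells of both genotypes, with ratios of -3.19 (rag1) and -0.90 (slc24a5) for si:dkey-21e2.13, -3.24 (rag1) and -0.63 (slc24a5) for si:dkey-21e2.8 and -3.53 (rag1) and -0.92 (slc24a5) for si:dkey-21e2.15. Their reads may be shared, since near-identical copies cannot be told apart by the deposited counts. Over all cells, si:dkey-21e2.12 was among the 10 leading genes of the NK/ILC-like cluster 8, which held 10 cells of the rag1 R848 library and 34 of the slc24a5 R848 library. It was detected in 11.4% of the cells of that cluster.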

How the results depend on the processing

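The difference in the share of cycling macrophages between R848 and untreated libraries kept its direction in both genotypes under every alternative run. It was 25.6 points (rag1) and 21.6 points (slc24a5) with at least 4 of the 6 macrophage genes, 13.7 points (rag1) and 10.1 points (slc24a5) without cells with at least 2 T-lineage genes, a list of which ccr9a and runx3 are macrophage-expressed here, and 21.6 points (rag1) and 18.0 points (slc24a5) with 11 T-lineage genes that leave them out. It was 20.6 points (slc24a5) at macrophage level, 10.6 points (rag1) and 11.7 points (slc24a5) after thinning to 3000 UMIs, and 15.8 points (rag1) after thinning to 5000 UMIs. The share with more G2/M than S phase UMIs was 89.5% (slc24a5) at macrophage level, against 84.8% over all cells of the rule. For cycling against other macrophages, 620 genes were higher and 279 lower with CPM + 1, 710 and 214 at 1.5-fold, 19 lower at macrophage level and 20 lower with at least 4 of the 6 macrophage genes. For rag1 against slc24a5, 48 genes were higher and 59 lower with CPM + 1, 77 and 38 at 1.5-fold, 29 higher by the mean over cells and 19 higher at macrophage level. Genes of the rule's lower set changed direction: at macrophage level the log2 ratios were 0.008 (rag1) and 0.049 (slc24a5) for fabp10a, 0.065 (rag1) and 0.251 (slc24a5) for gapdh, 0.092 (rag1) for fetub, 0.01 (slc24a5) for apoa1b and 0.149 (slc24a5) for hamp, and gzm3.4 was at 0.004 for rag1 against slc24a5. With at least 4 of the 6 macrophage genes they were 0.004 (rag1) and 0.041 (slc24a5) for fabp10a, 0.232 (slc24a5) for gapdh, 0.09 (rag1) for fetub, 0.008 (slc24a5) for apoa1b and 0.113 (slc24a5) for hamp. With other macrophages that had 0 cycle genes they were 0.012 for apoa2, 0.245 for fabp10a and 0.051 for fetub in rag1, and without high doublet scores 0.057 for fetub in rag1. The cause was not tested, although for apoa2 and fabp10a 1 cell gave most UMIs of other macrophages. Of the other values of single genes, 2898 were the same and 194 moved. Scaling by medians of ratios moved no median by more than 0.1 log2 units. No paired analysis was possible because the groups share fewer than 2 replicate numbers. Differences were taken within each genotype or library, no fit that treats the genotypes as replicates was run, and with 1 library per group no replicate could be left out. The alternatives for R848 against untreated within cycling macrophages were not run, since the untreated libraries held 1 and 3 such cells.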

Other observations

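Cells with 2 or 3 of the C1q genes, which the rule left out, are described here beside the cycling macrophages at macrophage level. The cycling cells among them had 14162 CPM (rag1 with R848) and 12815 CPM (slc24a5 with R848) of the macrophage genes that the rule did not use, summed, against 10235 CPM (rag1 with R848) and 8910 CPM (slc24a5 with R848) in the cycling macrophages at macrophage level. For the 6 genes of the rule, which chose the cells, the sums were 21523 CPM (rag1 with R848) and 22050 CPM (slc24a5 with R848), against 10729 CPM (rag1 with R848) and 11311 CPM (slc24a5 with R848). Of these C1q cells, 97.5% (rag1 with R848) and 99.5% (slc24a5 with R848) were at macrophage level. With 1 library per group the difference has no check between replicates.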
